A study of Mus musculus with 30 samples.

Results

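The genes described here are 10 members of the myostatin, activin and TGF-β system, chosen by name from the 55487 genes of the count table: the ligands Mstn, Gdf11, Inhba, Tgfb1, Tgfb2 and Tgfb3, the ligand inhibitor Fst, the receptors Acvr2b and Tgfbr1, and the feedback inhibitor Smad7. Their transcripts were measured by total RNA-seq in C2C12 cells, a wild-type mouse myoblast line that fuses into myotubes when serum is lowered. Cells of all 30 samples were differentiated for 4 days in 2% horse serum and were collected on day 8. During the last 4 days, cells of 6 samples stayed in 2% horse serum (2% HS) and 24 were serum deprived, of which 6 received nothing else (SD), 6 received 100 nM metformin (MET), 6 received 500 nM leucine (LEU) and 6 received both agents at these doses (MET+LEU). C2C12 is a single cell line, so the 6 replicates of a group were not different animals, and the sources do not say whether they were separate cultures or separate days; p-values therefore measure the spread between these samples, which may be technical.

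Ligands of this family are secreted as dimers and bind a type II receptor, which phosphorylates a type I receptor, which in turn phosphorylates Smad2 and Smad3. Myostatin, GDF11 and activin A mainly use the activin type II receptors, whereas the TGF-β ligands use Tgfbr2 with Tgfbr1. In skeletal muscle, myostatin and activin A are known as negative regulators of mass, follistatin binds and neutralizes both, and TGF-β ligands are known for restraining myoblast differentiation and for driving matrix production.

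Libraries held 12784960 to 19604103 counts, and 15907 genes were tested. The MET+LEU replicate 6 library stood apart, where nuclear rRNA genes took 5.85% and mitochondrial rRNA genes 7.64% of the total, whereas no other library exceeded 1.96% and 0.760%. Member calls that involve MET+LEU are therefore given with and without it, and the named genes of the other lists that lost their call without it are stated. Myotube markers were abundant, with a summed level between 30149 and 43443 CPM in every library for the 12 genes examined. CPM are counts scaled to library size after TMM normalization, which corrects for differences in composition. Of 6 blood or vessel cell markers, 5 averaged under 1 CPM in every group.

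Mstn and Gdf11 are close paralogues, so the ends of their coding sequences were compared to see how far reads of the 2 genes can be told apart. In the last 330 coding bases, which encode the mature ligand, 247 bases (74.8%) were identical between Mstn and Gdf11. The longest run of identical bases between any transcripts of these 2 genes was 12 bases, against a read length of 150 bases. Among the TGF-β ligands, coding ends were 68.7% identical for Tgfb1 and Tgfb2, 73.7% for Tgfb1 and Tgfb3 and 70.8% for Tgfb2 and Tgfb3, with no shared run above 15 bases. Opposite-strand genes overlap 5 members, and counts cannot be split between strands where the strand setting is not known. The abundant one is Ttll5, which overlaps Tgfb3 and averaged 76.7 CPM, with group means between 76.2 and 78.0 CPM. The others reached at most 26 counts in any library.

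Promoters are shown for Mstn, which stayed at or below the detection limit, and for its expressed paralogue Gdf11. They are also shown for the ligand that fell (Inhba) and a ligand that rose (Tgfb2) on serum withdrawal. RefSeq promoter windows (GRCm38.p6) matched 7 members, namely Mstn, Gdf11, Inhba, Tgfb1, Tgfb2, Acvr2b and Tgfbr1. The 250 bases before the annotated start are printed 5′ to 3′ on the gene's strand, with TATAAA in capitals in all 4, and CCAAT and the longest run common to the Mstn and Gdf11 windows (CTGACGACAC) also in capitals in those 2.
Mstn, chr1:53061390-53061639, plus strand: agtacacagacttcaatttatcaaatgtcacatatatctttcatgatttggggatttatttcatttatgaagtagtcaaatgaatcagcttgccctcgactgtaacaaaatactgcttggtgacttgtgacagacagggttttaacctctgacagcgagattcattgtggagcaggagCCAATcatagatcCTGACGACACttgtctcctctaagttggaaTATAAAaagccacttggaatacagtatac
Gdf11, chr10:128891719-128891968, minus strand: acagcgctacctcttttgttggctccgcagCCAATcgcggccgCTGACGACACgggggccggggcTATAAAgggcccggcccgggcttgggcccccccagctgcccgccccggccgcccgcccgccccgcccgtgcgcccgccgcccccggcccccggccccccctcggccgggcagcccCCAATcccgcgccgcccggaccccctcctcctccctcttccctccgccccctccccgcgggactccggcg
Inhba, chr13:16011601-16011850, plus strand: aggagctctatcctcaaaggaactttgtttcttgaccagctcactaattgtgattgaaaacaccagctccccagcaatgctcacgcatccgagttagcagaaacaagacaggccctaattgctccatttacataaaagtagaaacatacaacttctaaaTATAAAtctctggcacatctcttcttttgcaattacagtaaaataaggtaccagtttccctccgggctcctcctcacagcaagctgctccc
Tgfb2, chr1:186705990-186706239, minus strand: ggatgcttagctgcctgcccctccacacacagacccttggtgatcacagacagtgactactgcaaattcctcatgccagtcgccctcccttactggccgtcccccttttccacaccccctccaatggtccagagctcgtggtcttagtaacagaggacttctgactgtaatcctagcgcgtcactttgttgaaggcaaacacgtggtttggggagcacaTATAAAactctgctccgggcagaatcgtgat

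**Figure D1:**
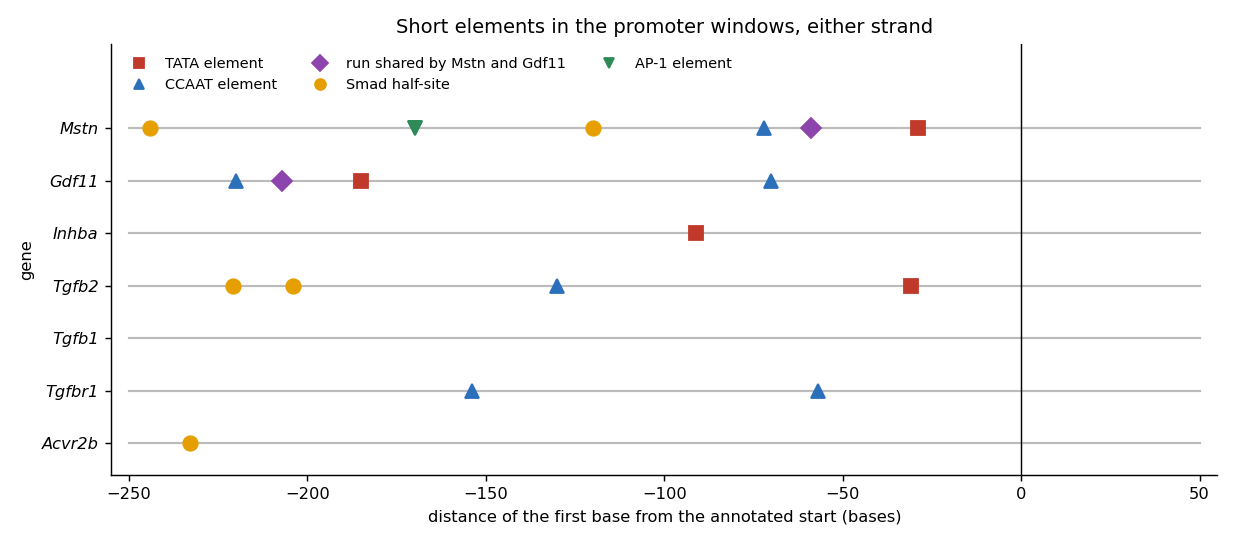
Positions of 5 short elements, on either strand, in the promoter windows of 7 members; the x axis is the distance in bases of the element's first base from the annotated start, with negative values upstream. Tgfb2 and Mstn carry a TATA element at -31 and -29, and Mstn and Gdf11 share a run that lies at -59 in Mstn and at -207 in Gdf11; the window of Tgfb1 holds none of the 5.

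In windows from 250 bases before to 50 after the start, TATAAA on either strand was found in 13.6% of 32544 promoters. It lay at -29 in Mstn, -31 in Tgfb2, -91 in Inhba and -185 in Gdf11. The run CTGACGACAC, picked after the sequences were seen, occurred on either strand in 0.043% of the promoters, and in Mstn and Gdf11 it was preceded by AGCCAATC, which began at -74 and -222. CAGAC, the core letters bound by Smad proteins, was found in 49.5% of promoters and was present in the Mstn, Tgfb2 and Acvr2b windows and in 1 of the 2 Tgfbr1 windows. TGANTCA, the AP-1 letters, was found in 7.79% of promoters and once in the Mstn window. The GC content of the windows was 41.3% for Mstn, 47.7% for Inhba and 54.3% for Tgfb2, against 73.3% for Acvr2b, 77.0% for Tgfb1 and 80.7% for Gdf11, and 74.7% and 52% for the 2 Tgfbr1 windows, with a median of 53% over all promoters. These matches describe letters only, and binding was not measured.

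Mstn (ENSMUSG00000026100, chr1:53061640-53068079) encodes myostatin, and its transcript stayed at or below the detection limit in these myotubes. No count was found in any of the 6 libraries of 2% HS or of MET. SD replicate 1 had 3 counts, LEU replicate 2 had 1 count and MET+LEU replicate 2 had 2 counts, and every other library had 0. A count of 0 allows up to 3 counts, which corresponds to 0.152 to 0.243 CPM depending on the library, and this limit covers counting error only. Mstn did not pass the filter on low counts and was not tested, so all counts of called genes below refer to the 9 other members.

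Levels of different genes were compared as CPM per kb of exon. Tgfb3 was the most abundant member in every group, with a mean level of 81.9 ± 1.82 CPM per kb (SD, n = 6) in 2% HS and 94.7 ± 3.83 in SD. Fst came next at 62.1 ± 2.41 and 64.9 ± 3.25, followed by Tgfb2 (25.9 ± 1.81 and 29.97 ± 2.84) and Tgfb1 (18.6 ± 1.07 and 18.98 ± 1.51). These 4 genes had ranges that did not overlap their neighbours in the order in any group. The TGF-β ligand transcripts of these myotubes were thus mostly Tgfb3, which made up 64.8% to 66.3% of their summed level per kb in the group means, against 12.99% to 14.7% for Tgfb1.

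Tgfbr1, Gdf11, Smad7 and Inhba formed the middle of the order, between 6.15 and 12.6 CPM per kb. The ranges of Gdf11 and Smad7 overlapped in every group, so their order was not resolved in any group. Tgfbr1 overlapped the next gene in every group but LEU. The Inhba range lay wholly below those of Tgfbr1, Gdf11 and Smad7 in SD, MET and LEU, and overlapped a neighbour in 2% HS and MET+LEU. Inhba ranked 6 of 10 in 2% HS, at 10.6 ± 1.17 CPM per kb, and 8 of 10 in the 4 serum-deprived groups, at 6.15 to 7.02. Acvr2b was the lowest of the tested members, at 1.15 to 1.42 CPM per kb, and Mstn was last.

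**Figure D2:**
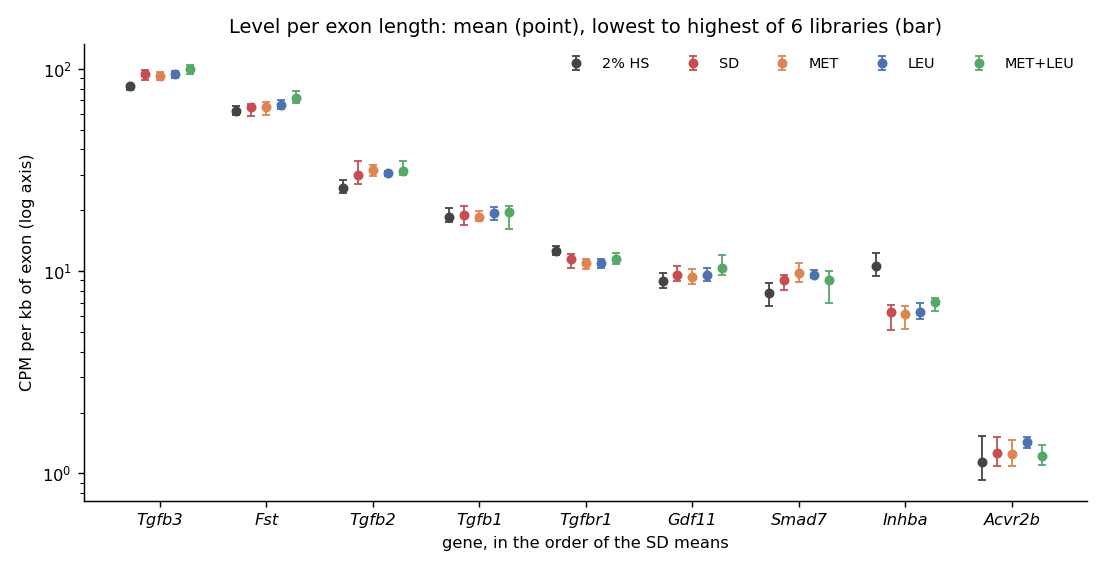
Level of the 9 tested members in CPM per kb of exon on a log axis, ordered by the SD mean, with the 5 groups in colour; points are means and bars run from the lowest to the highest of 6 libraries. Tgfb3 and Fst are at 58.6 CPM per kb or above in every library. The 2% HS libraries lie above all serum-deprived libraries for Inhba (9.46 to 12.3 against 5.09 to 7.40). For Tgfb3 they lie below them (78.4 to 83.6 against 88.2 or above). In SD vs. 2% HS alone, 13.6% of all genes tested had groups that did not overlap.

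After serum withdrawal (SD vs. 2% HS), Inhba fell to 0.596 of its level, Tgfbr1 fell slightly, and Tgfb2, Tgfb3 and Smad7 rose slightly. Of the 9 tested members, 3 rose and 2 fell in the quasi-likelihood test of edgeR (adjusted p under 0.05, by Benjamini-Hochberg over all genes tested), where 27.8% of all genes tested were called (13.9% higher and 13.9% lower). The median log2 fold change of the members was 0.11, against 0.0028 over all genes. The members were chosen with earlier results of these data known, so counts of called members describe these genes only. As these were bulk samples, a change in the share of cells that express a gene and a change in RNA per cell cannot be told apart. The comparison asks what 4 days without serum does to the myotubes.

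Inhba (ENSMUSG00000041324, chr13:16011851-16031621) encodes the subunit of activin A and showed the largest change of the members. Its level in 2% HS was 60.4 CPM at the lowest, 65.4 at the median and 78.7 at the highest of the 6 libraries. In SD the corresponding values were 32.5, 41.3 and 43.4 CPM. All SD libraries lay below all 2% HS libraries. The log2 fold change was -0.75 (SE 0.068), or 0.596-fold, with an edgeR adjusted p of 1.75e-11.

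Among the other ligands, Tgfb3 (ENSMUSG00000021253, chr12:86056745-86079041) encodes TGF-β3. Its libraries ran from 265 through a median of 279 to 283 CPM in 2% HS, and from 298 through 321 to 334 CPM in SD, with no overlap. The log2 fold change was 0.21 (SE 0.032, edgeR adjusted p 8.31e-07). Inhba and Tgfb3 were 2 of 9 members whose libraries did not overlap between the groups, where 13.6% of all genes tested did not overlap.

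Tgfb2 (ENSMUSG00000039239, chr1:186622792-186705989) encodes TGF-β2 and rose by a similar amount. Its level was 141, 147 and 163 CPM at the lowest, median and highest in 2% HS and 157, 170 and 204 CPM in SD, so that the groups overlapped at their edges. The log2 fold change was 0.21 (SE 0.048, edgeR adjusted p 0.000696).

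Tgfb1 (ENSMUSG00000002603, chr7:25687002-25705077), which encodes TGF-β1, had libraries of 88.0 to 104 CPM in 2% HS and 85.5 to 106 CPM in SD. Its log2 fold change of 0.03 (95% interval -0.08 to 0.14) did not pass the test (edgeR adjusted p 0.759). Gdf11 (ENSMUSG00000025352, chr10:128882295-128891718) encodes the closest relative of myostatin and was at 33.4 to 39.8 CPM in 2% HS and 36.3 to 43.2 CPM in SD. Its log2 fold change of 0.11 (95% interval 0.00047 to 0.22) was not called either (edgeR adjusted p 0.130).

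Fst (ENSMUSG00000021765, chr13:114452290-114458951) encodes follistatin, the secreted inhibitor of activins and myostatin. Its level was 271, 288 and 299.7 CPM at the lowest, median and highest in 2% HS, and 269, 304 and 308 CPM in SD. The log2 fold change of 0.06 (95% interval -0.02 to 0.14) did not pass the test (edgeR adjusted p 0.238). Fst was not called while Inhba fell, so a ratio of Fst to Inhba mostly followed the fall of Inhba. This ratio, each gene per kb of exon, was 5.94 ± 0.603 (SD, n = 6) in 2% HS, with a highest library of 6.61. In SD the ratio was 10.4 ± 0.656, with a lowest library of 9.82. The MET, LEU and MET+LEU means were 10.6 ± 1.18, 10.7 ± 0.860 and 10.2 ± 0.578, and no serum-deprived library fell below 9.25. The ratio covers this pair only. Inhbb, the gene of the activin B subunit, was more abundant than Inhba. Its mean was 21.1 CPM per kb against 10.6 in 2% HS and 17.9 against 6.30 in SD. The follistatin-like gene Fstl3 was called lower in SD vs. 2% HS.

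The receptors changed little. Tgfbr1 (ENSMUSG00000007613, chr4:47353222-47414931), the type I receptor for TGF-β, was at 79.0, 82.2 and 87.4 CPM at the lowest, median and highest in 2% HS and at 68.1, 74.6 and 79.9 CPM in SD. The groups overlapped only between 79.0 and 79.9 CPM, and the log2 fold change was -0.14 (SE 0.041, edgeR adjusted p 0.00699). Acvr2b (ENSMUSG00000061393, chr9:119402118-119434995), a type II receptor for activins and myostatin, had 53 to 98 counts per library. Its levels of 3.64 to 6.00 CPM in 2% HS and 4.26 to 5.98 CPM in SD overlapped widely, and its log2 fold change of 0.15 had a 95% interval from -0.09 to 0.39 (edgeR adjusted p 0.359).

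Smad7 (ENSMUSG00000025880, chr18:75367529-75395935) encodes the inhibitory Smad that is induced by TGF-β signals and blocks the type I receptor. Its level was 30.6, 34.7 and 39.7 CPM at the lowest, median and highest in 2% HS and 36.5, 41.2 and 43.2 CPM in SD, with overlap. The log2 fold change was 0.22 (SE 0.066, edgeR adjusted p 0.0114). This call was lost without 2% HS replicate 4, where the log2 fold change was 0.17 and the adjusted p was 0.0551.

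**Figure D3:**
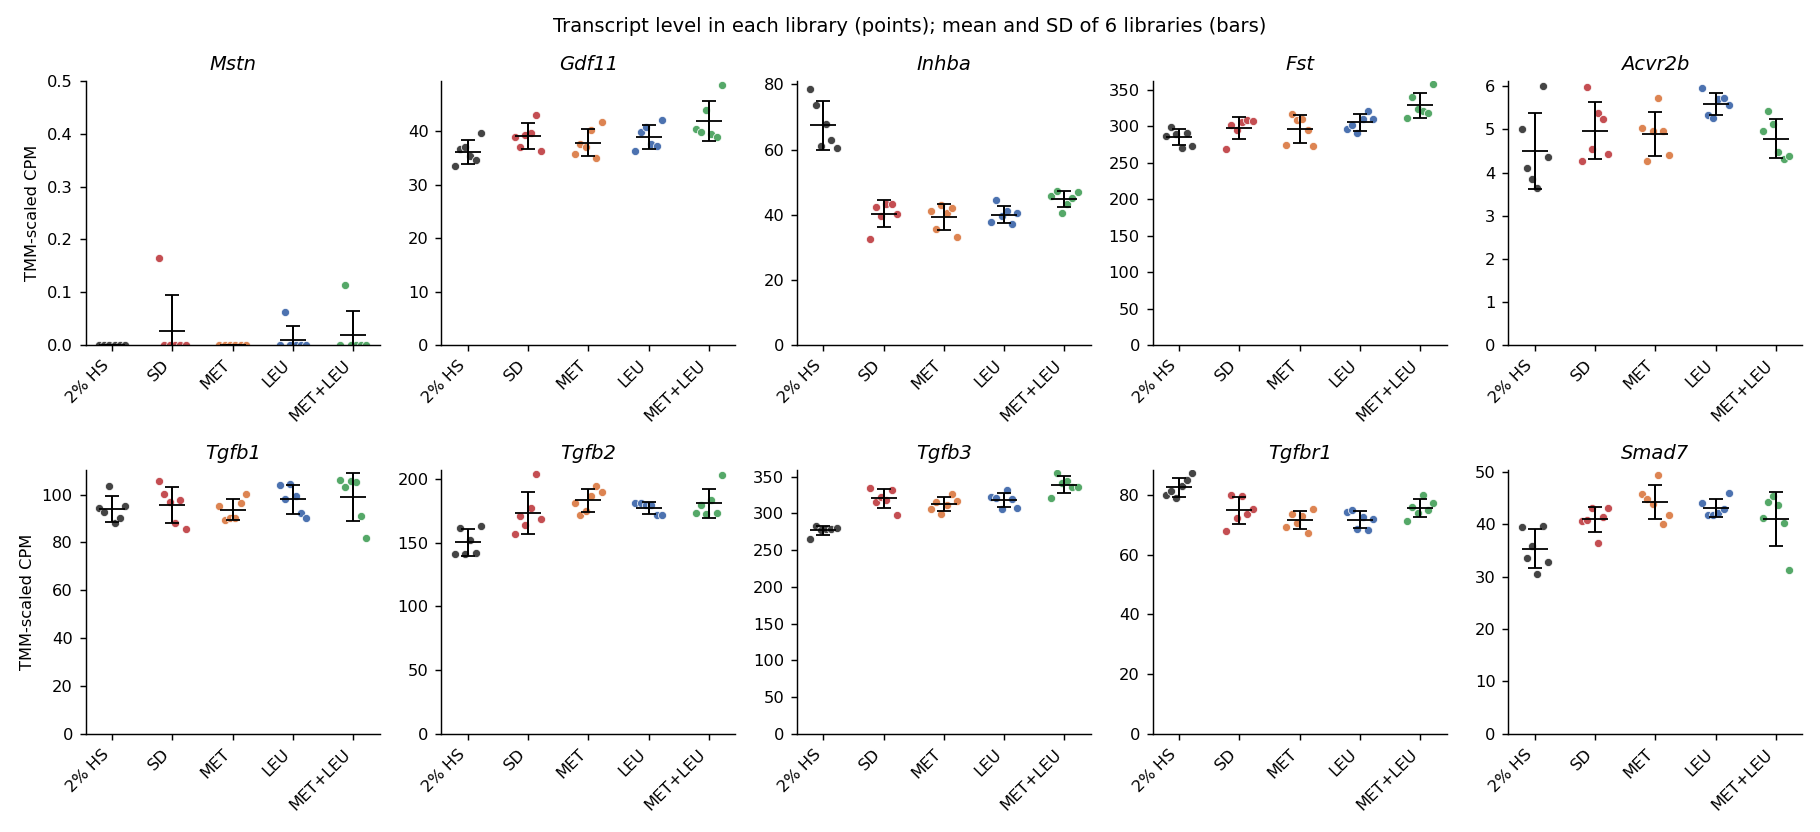
TMM-scaled CPM of the 10 members in each of the 30 libraries (points, in replicate order) with the mean and SD of each group of 6 (black); each y axis starts at 0 and has its own scale. Inhba is higher in all 6 libraries of 2% HS (60.4 to 78.7 CPM) than in any serum-deprived library, and Mstn has 3 libraries above 0. Of all genes tested, 13.6% did not overlap between the groups of SD vs. 2% HS. Fst has its highest mean in MET+LEU (312 to 358 CPM), where the range overlaps MET (273 to 316 CPM) and LEU (290 to 322 CPM).

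With either agent alone, no member passed the test at these low doses. In MET vs. SD, 0 of 9 tested members passed the edgeR test (0.157% of all genes were called), 0 had an unadjusted p under 0.05 (10.0% of all genes did), limma-voom called 0, and DESeq2 called 0 of the 8 members to which it gave an adjusted p (not Acvr2b). In LEU vs. SD the counts were again 0 by edgeR (0.553% of all genes were called), 0 at an unadjusted p under 0.05 (9.98% of all genes), and 0 by DESeq2 and by limma-voom. The intervals show what remains possible. For Inhba the log2 fold change was -0.03 (95% interval -0.17 to 0.11) with MET and -0.0048 (-0.15 to 0.14) with LEU. For Fst it was -0.0081 (95% interval -0.09 to 0.07) with MET and 0.04 (-0.04 to 0.11) with LEU.

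The largest uncalled difference with MET was in Smad7, at 44.4 CPM in the median library against 41.2 CPM in SD. Its log2 fold change of 0.12 had a 95% interval from -0.01 to 0.25 (edgeR adjusted p 0.577). With LEU the largest was in the sparsely counted Acvr2b, at 5.64 CPM in the median library against 4.89 CPM in SD (log2 fold change 0.17, 95% interval -0.06 to 0.40, edgeR adjusted p 0.671).

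**Figure D4:**
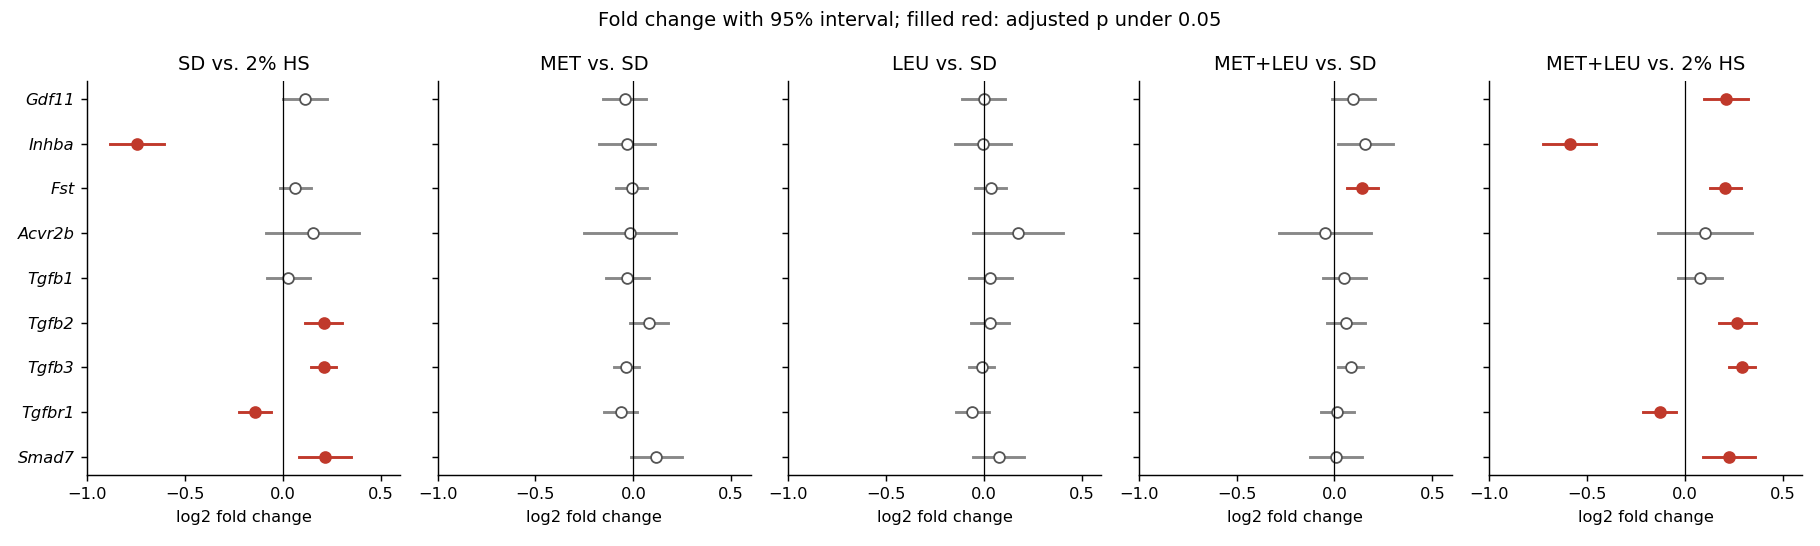
Log2 fold change (x axis) of the 9 tested members in 5 comparisons, with 95% intervals; filled red points have an edgeR adjusted p under 0.05. SD vs. 2% HS has 5 such members, where 27.8% of all genes tested were called. MET and LEU vs. SD have 0 (0.157% and 0.553% of all genes). MET+LEU vs. SD has Fst alone at 0.14 (18.4% of all genes), and MET+LEU vs. 2% HS has 7 (42.3% of all genes).

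The combination of MET and LEU (MET+LEU vs. SD) raised Fst and no other member passed the test. The 1 call among 9 tested members stood against 18.4% of all genes tested (10.6% higher and 7.80% lower). Fst was at 312, 322 and 358 CPM at the lowest, median and highest in MET+LEU, and at 269, 304 and 308 CPM in SD. Its lowest MET+LEU library exceeded its highest SD library, and 5.34% of all genes had groups apart in this way, in either direction. The log2 fold change was 0.14 (SE 0.039), or 1.103-fold, with an edgeR adjusted p of 0.00815. Without MET+LEU replicate 6 it was 0.11 (adjusted p 0.0379), and without SD replicate 1, the lowest SD library, it was 0.11 with the call lost (adjusted p 0.0539). With limma-voom and quality weights the call was also lost (log2 fold change 0.10, adjusted p 0.0777).

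Tgfb3 and Inhba were higher in MET+LEU than in SD by amounts that did not pass the adjusted test. Tgfb3 was at 321, 339 and 355 CPM at the lowest, median and highest in MET+LEU, with a log2 fold change of 0.08 vs. SD (95% interval 0.02 to 0.15, edgeR adjusted p 0.0625). DESeq2 called it (adjusted p 0.0299), and edgeR called it without MET+LEU replicate 1 (adjusted p 0.0498). Inhba was at 40.6, 45.5 and 47.3 CPM, with a log2 fold change of 0.16 (95% interval 0.02 to 0.30, edgeR adjusted p 0.112). Both groups stayed below the 60.4 CPM of the lowest 2% HS library for Inhba. Smad7, Tgfb2 and Tgfbr1 had log2 fold changes of 0.0084, 0.06 and 0.01.

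Vs. 2% HS, MET+LEU myotubes differed in 7 of 9 tested members, with 5 higher and 2 lower, where 42.3% of all genes tested were called (22.1% higher and 20.3% lower). Inhba was still lower, by a log2 fold change of -0.59 (SE 0.068, edgeR adjusted p 3.60e-09), or 0.665-fold. Tgfb3 (0.29, SE 0.032, adjusted p 2.13e-10), Tgfb2 (0.27, SE 0.048, adjusted p 1.26e-05) and Fst (0.21, SE 0.039, adjusted p 3.20e-05) were higher. For these 4 genes the libraries of the groups did not overlap. Of all genes tested, 11.5% lay wholly higher and 9.51% wholly lower. Gdf11, at 38.9 to 48.7 CPM in MET+LEU against 33.4 to 39.8 CPM in 2% HS, was higher by 0.21 (SE 0.056, edgeR adjusted p 0.00190). Smad7 was higher by 0.22 (SE 0.066, edgeR adjusted p 0.00547) and Tgfbr1 lower by a log2 fold change of -0.13 (SE 0.041, adjusted p 0.01001).

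MET+LEU replicate 6 held the highest Gdf11 (48.7 CPM) and Tgfb2 (203 CPM) and the lowest Smad7 (31.3 CPM) of its group. Without it all 7 calls vs. 2% HS were kept, and the log2 fold changes were 0.16 for Gdf11 (edgeR adjusted p 0.0149), 0.22 for Tgfb2 (adjusted p 0.000101) and 0.28 for Smad7 (adjusted p 6.43e-05). Tgfb1, whose log2 fold change was 0.08 with all libraries (edgeR adjusted p 0.271), then became an eighth call at 0.12 (adjusted p 0.0456). The comparisons MET+LEU vs. SD and MET+LEU vs. 2% HS share their MET+LEU libraries, and SD vs. 2% HS shares its libraries with both.

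Adding MET to LEU (MET+LEU vs. LEU) left 0 of 9 members called by edgeR (6.28% of all genes were called), with 3 at an unadjusted p under 0.05 (21.5% of all genes), namely Inhba, Fst and Tgfb3. DESeq2 called 1, Tgfb3, at an adjusted p of 0.0355, and limma-voom called 0. Adding LEU to MET (MET+LEU vs. MET) raised Fst by a log2 fold change of 0.15 (SE 0.039, edgeR adjusted p 0.0122) and Tgfb3 by 0.12 (SE 0.032, adjusted p 0.0141), where 8.69% of all genes were called. Fst was no longer called without MET+LEU replicate 6 (adjusted p 0.0583), MET replicate 1 (0.0659) or MET replicate 6 (0.0605). Tgfb3 was no longer called without MET replicate 1 (0.0542), MET replicate 3 (0.0727) or MET+LEU replicate 2 (0.0544), and was kept without MET+LEU replicate 6 (0.0263). With no filter on low counts, Tgfb3 was no longer called (edgeR adjusted p 0.107) and Inhba was (log2 fold change 0.18, adjusted p 0.0228).

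Whether the combination departed from the sum of its agents on the log2 scale was tested by the interaction of MET and LEU. No member passed by edgeR (0 of 9, with 0.0503% of all genes called) or by limma-voom, and DESeq2 gave an adjusted p to only 3 of the 9 (Fst, Tgfb2 and Tgfb3) and called 0 of these. At an unadjusted p under 0.05, met by 8.73% of all genes, there were 3, Tgfb3 (interaction 0.13, p 0.00571), Tgfbr1 (0.14, p 0.0233) and Fst (0.11, p 0.0459), with edgeR adjusted p of 0.332, 0.466 and 0.557. For Inhba the interaction was 0.19 with a 95% interval from -0.0055 to 0.40.

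The other genes of the pathway were examined as 6 lists from general knowledge, drawn up with earlier results of these data known. Their counts of calls therefore describe these genes only. In SD vs. 2% HS, where 27.8% of all genes were called, of 10 tested other ligands 2 rose and 4 fell. Gdf15, a stress-induced ligand, fell from 5.52 ± 1.29 to 2.33 ± 0.782 CPM (log2 fold change -1.24, edgeR adjusted p 9.42e-06). Bmp6 fell from 50.9 ± 1.71 to 27.4 ± 3.73 CPM (-0.89, adjusted p 2.08e-15), whereas Bmp8a rose from 1.95 ± 0.229 to 3.59 ± 0.596 CPM (0.87, adjusted p 1.04e-05). All 3 had groups that did not overlap. Inhbb, which encodes the subunit of activin B, was also among the ligands that fell, from 89.7 ± 4.21 to 76.0 ± 11.2 CPM (-0.24, edgeR adjusted p 0.0287).

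Of 22 tested extracellular regulators, 8 were higher and 9 lower. Lrrc32, which tethers latent TGF-β to the cell surface, fell (-1.18, edgeR adjusted p 1.21e-09). The BMP antagonist Chrd fell from 67.0 ± 3.72 to 37.2 ± 4.21 CPM (-0.85, edgeR adjusted p 1.69e-13). Each of the 6 lists held calls in both directions.

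Of 14 other receptors, 3 rose and 3 fell. Tgfbr2, the type II receptor that pairs with Tgfbr1, rose from 205 ± 9.25 to 253 ± 13.9 CPM (log2 fold change 0.31, edgeR adjusted p 1.81e-09), with no overlap between the groups. Thus Tgfbr2 and Tgfbr1 changed in opposite directions. Rgma, a BMP co-receptor, fell (-0.29, edgeR adjusted p 2.29e-05), and Acvrl1 rose from a level near 1 CPM (0.81, adjusted p 0.00537). Of 22 other Smads and intracellular regulators, 5 rose and 3 fell, and the changes were small. Smad6, the inhibitory Smad related to Smad7, rose (0.32, edgeR adjusted p 0.00152), as did Smad9 (0.42, adjusted p 0.00791), and the corepressor Tgif1 fell (-0.20, adjusted p 8.28e-05). The transducers Smad2, Smad3 and Smad4, named after their values were seen, had log2 fold changes of 0.02, 0.06 and 0.03 and were not called.

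TGF-β target genes were called in both directions. Of 18 tested, 9 rose and 3 fell, where 13.9% of all genes were called higher and 13.9% lower. Their median log2 fold change was 0.25, against 0.0028 over all genes. Among those that fell was Ccn2, a matrix-associated growth factor and a well known direct target, from 111 ± 9.16 to 52.8 ± 4.64 CPM (-1.07, edgeR adjusted p 1.02e-17). Postn, a matrix protein, rose from 321 ± 11.3 to 582 ± 31.3 CPM (0.86, edgeR adjusted p 1.86e-22). Of 6 BMP target genes, Id1 rose (0.33, edgeR adjusted p 1.45e-05) while Hey1 (-0.56, adjusted p 4.59e-05) and Id2 (-0.25, adjusted p 0.00137) fell.

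Col1a1 and Col3a1 of the target list were also on a list of fibroblast markers. C2C12 is a myoblast line, and whether the cultures held any fibroblasts was not tested. The summed level of 7 fibroblast markers was 2986 to 3297 CPM in 2% HS and 5202 to 5519 CPM in SD. Of the tested markers, 5 of 5 were higher in SD. Most of the fibroblast sum was Col3a1, followed by Col1a1. As both are on the target list, this sum does not describe a cell type independently of the target genes. Pdgfra, Dcn, Lum, Col1a1, Col3a1, Thy1 and Tcf21 made up this list, and Thy1 and Tcf21 averaged under 1 CPM in every group, with Tcf21 at 0. The summed level of 12 myotube markers was 40679 to 43443 CPM in 2% HS and 33150 to 35993 CPM in SD. Most of this sum was Ttn, at 30972 ± 1212 CPM in 2% HS and 24592 ± 1420 CPM in SD. It was 1 of 4 of the 12 myotube markers that fell, with Ckm, Myh1 and Myh4, and Mylpf rose. The part of these shifts in the results was not tested.

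**Figure D5:**
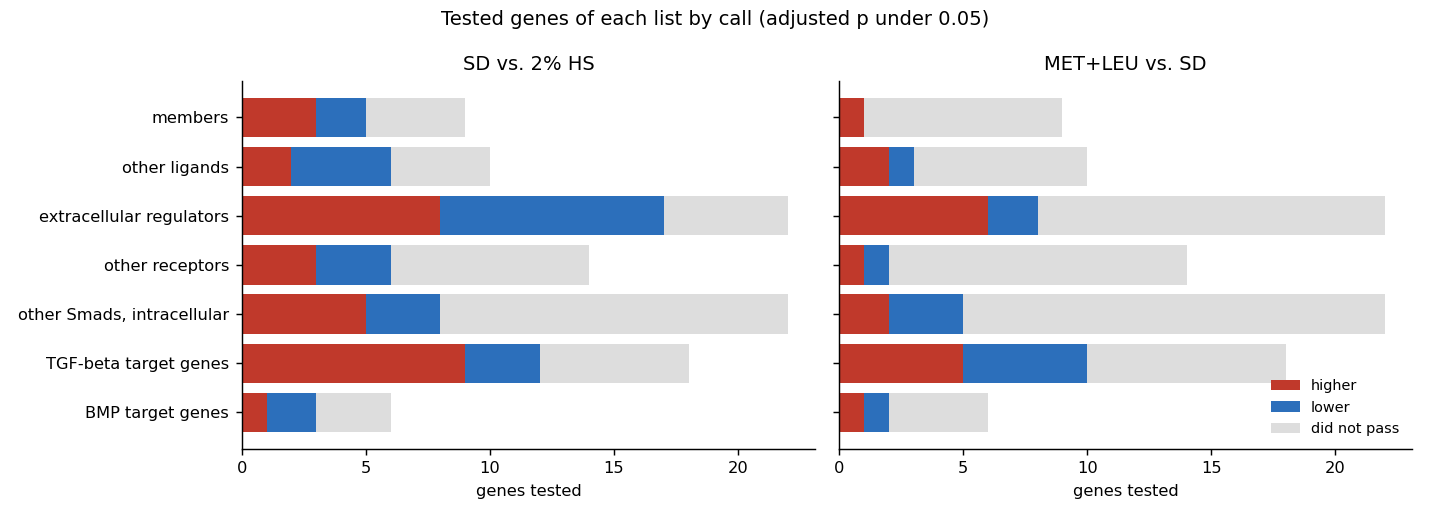
Number of tested genes in each list (x axis) that were higher (red), lower (blue) or did not pass the test (grey) in SD vs. 2% HS (left) and MET+LEU vs. SD (right). In SD vs. 2% HS, 17 of 22 extracellular regulators and 12 of 18 TGF-β target genes were called, and in MET+LEU vs. SD 8 and 10 were. Of all genes tested, 27.8% and 18.4% were called in these 2 comparisons.

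Of 22 tested extracellular regulators 6 rose and 2 fell in MET+LEU vs. SD, where 18.4% of all genes were called. Without MET+LEU replicate 6 the counts were 5 and 2 of 23. Grem1, a BMP antagonist, rose from 109 ± 7.67 to 140 ± 10.2 CPM (log2 fold change 0.36, edgeR adjusted p 0.000162), with no overlap between the groups. Chrdl1, another BMP antagonist, rose (0.25, edgeR adjusted p 0.000207), as did Dcn, a proteoglycan that binds TGF-β (0.48, adjusted p 0.00111). Grem1 and Chrdl1 had fallen in SD vs. 2% HS, by log2 fold changes of -0.67 (edgeR adjusted p 5.36e-10) and -0.21 (adjusted p 0.000500); this is stated after seeing the values, and both contrasts share the SD libraries.

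Of 10 other ligands, Inhbb (0.26, edgeR adjusted p 0.0221) and Bmp4 (0.25, adjusted p 0.0140) rose and Inha, the inhibin subunit, fell (-0.38, adjusted p 0.0378). Inhbb was at 91.4 ± 9.60 CPM in MET+LEU against 76.0 ± 11.2 CPM in SD. Of 14 other receptors, Acvr2a, the second activin type II receptor, rose (0.14, edgeR adjusted p 0.0411) and Bmpr1b fell (-0.27, adjusted p 0.0295). Of 22 intracellular genes 2 rose and 3 fell, among them the corepressor Tgif2 (-0.50, edgeR adjusted p 0.00179), the kinase adaptor Tab1 (-0.15, adjusted p 0.0384) and the deubiquitinase Usp15, which rose (0.15, adjusted p 0.0117). Without MET+LEU replicate 6, Inha (edgeR adjusted p 0.111), Acvr2a (0.0887), Tab1 (0.0818) and Usp15 (0.0640) were no longer called. The calls higher and lower were then 2 and 0 of 11 other ligands, 0 and 1 of 14 receptors, and 0 and 2 of 22 intracellular genes.

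TGF-β target genes split evenly, with 5 of 18 higher and 5 lower, where 10.6% of all genes were called higher and 7.80% lower. Without MET+LEU replicate 6 there were 3 of 19 higher and 5 lower, and 1217 and 958 of all 16062 genes. Tpm1, a tropomyosin that muscle cells also express, rose from 1001 ± 47.5 to 1275 ± 129 CPM (log2 fold change 0.35, edgeR adjusted p 3.78e-07). Col1a1 fell from 771 ± 59.8 to 605 ± 30.7 CPM (-0.35, edgeR adjusted p 2.14e-06). Of 6 BMP target genes, Id2 rose (0.26, edgeR adjusted p 0.00194) and Hey1 fell (-0.51, adjusted p 0.00121). Cycling cell markers fell in 7 of 7 cases, where 7.80% of all genes were called lower. Their summed level was 175 to 243 CPM in SD and 127 to 163 CPM in MET+LEU. Of 12 myotube markers 6 rose, where 10.6% of all genes were called higher, but the summed level of the 12 overlapped between the groups. It was 33150 to 35993 CPM in SD (median 35667) and 33293 to 42843 CPM in MET+LEU (median 35716). The part of these markers in the results was not tested.

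With MET alone none of the 92 tested genes of the 6 lists was called by edgeR, and 8 had an unadjusted p under 0.05, where 10.0% of all genes did. With LEU alone 1 was called, Col1a1, which fell, and 16 had an unadjusted p under 0.05, against 9.98% of all genes. These counts also depended on MET+LEU replicate 6, which enters the shared estimate of the spread. Without it, 1 of 19 TGF-β targets was called higher and 1 lower with MET alone, and 1 and 3 with LEU alone. The other lists held no call, and 160 and 269 of 16062 genes were then called. The calls in MET+LEU vs. 2% HS, where 42.3% of all genes were called, were 2 higher and 3 lower of 10 other ligands, 7 and 8 of 22 extracellular regulators, 5 and 3 of 14 receptors, 7 and 3 of 22 intracellular genes, 10 and 4 of 18 TGF-β targets, and 1 and 1 of 6 BMP targets. Without MET+LEU replicate 6, fewer receptors and intracellular genes were called higher. In the same order the calls were then 2 and 3 of 11, 7 and 9 of 23, 3 and 3 of 14, 5 and 3 of 22, 10 and 4 of 19, and 1 and 1 of 6.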

How the data were processed

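Total RNA was depleted of ribosomal RNA, made into stranded libraries and sequenced with paired reads of 150 bases. The deposited values are raw counts of reads per Ensembl gene, made by the authors without normalization. The submitters' processing notes name cutadapt 1.16, STAR 2.7.6a, featureCounts 1.6.3, DESeq2 1.30.1 and the build GRCm38; the annotation release and strand setting are not given in the sources used here. The members and gene lists were chosen with earlier results of these data known.

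Symbols, positions and exon lengths came from GENCODE M21 (GRCm38; 55227 of 55487 identifiers matched). In R 4.3.3, genes were filtered with edgeR 4.0.16 filterByExpr (minimum count 10, minimum total 15), which left 15907 genes, and scaled by TMM. The model held 1 mean per group over all 30 libraries, and edgeR's quasi-likelihood F test was applied to each contrast, with Benjamini-Hochberg adjusted p under 0.05 over all genes as the threshold. The standard error is the absolute log2 fold change divided by the square root of F. Scripts were tested on simulated data. All members are named in the text. From each list, the 3 genes with the largest change past the threshold and a mean log2 CPM of at least 0 are named in SD vs. 2% HS and MET+LEU vs. SD (apart from some that are not reported here), and genes named otherwise were chosen after their values were seen. Alternatives were 2 other scalings, DESeq2 1.42.0, limma 3.58.1 voom with quality weights, other filters, only the groups compared, a replicate block, a threshold of 0.01 and leaving out each library. Same-numbered libraries of different groups had correlations of their deviations between -0.0913 and 0.142 (mean 0.0157), so the numbers were not used as pairs. Totals of 12784960 to 19604103 counts set the precision, and limits from counts cover counting error only. No replicate pair differed by less than sampling noise.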

Additional observations from a re-analysis of the deposited data

Results flagged for a closer look

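Within groups of 6, 6 values lay further from their nearest neighbour than Dixon's critical ratio allows. These were among the 45 groups of the 9 tested members, where chance gives about 1 in 20. Some of these values came from the same library and are not independent. For Mstn the ratio says nothing, since 1 library above 0 among zeros passes it by construction; the 3 libraries with any count were SD replicate 1 at 0.164 CPM, MET+LEU replicate 2 at 0.113 CPM and LEU replicate 2 at 0.0628 CPM, each against 0 in the rest of its group. SD replicate 1 was also the lowest of its group for Inhba (32.5 CPM, next 39.7) and for Fst (269 CPM, next 295). MET+LEU replicate 6 was the highest of its group for Tgfb2 (203 CPM, next 183) and the lowest for Smad7 (31.3 CPM, next 40.2). Smad7 was also low in SD replicate 4 (36.5 CPM, next 40.7), and Tgfb3 was low in 2% HS replicate 1 (265 CPM, next 278).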

How the results depend on the processing

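The 5 calls in SD vs. 2% HS were 4 to 5, and the 7 in MET+LEU vs. 2% HS were 6 to 8, under all settings tried; the call for Inhba was kept in every fit of both. The count of 1 in MET+LEU vs. SD became 2 with DESeq2 and 0 with limma-voom, and ran from 0 (without SD replicate 1) to 2 (without MET+LEU replicate 1) when single libraries were left out. The count of 0 in MET+LEU vs. LEU became 1 with DESeq2. The count of 2 in MET+LEU vs. MET became 0 with only the groups compared and 0 at a threshold of 0.01, and ran from 0 (without MET replicate 1) to 3 (without MET+LEU replicate 3) when single libraries were left out. The cause was not tested. With a replicate block the member counts were 5, 0, 0, 1, 7, 0, 2 and 0 in the 8 contrasts, as without it; 9 of 30 libraries correlated best with their own number.

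Changes of sign concerned members near 0 that were not called. Gdf11 in LEU vs. SD was at 0.0029 with DESeq2 size factors, 0.0030 with upper-quartile scaling and with DESeq2, 0.0017 with limma-voom, 0.0014 without a filter and 0.0016 with only the groups compared. For MET+LEU vs. SD, Tgfbr1 was at -0.0017 (upper quartile) and -0.012 (limma-voom) and Smad7 at -0.0065 (upper quartile). In MET+LEU vs. LEU, Tgfb1 was at -0.0036 (upper quartile) and Tgfb2 at -0.0019 (limma-voom). With single libraries left out, log2 fold changes ran from -0.0059 to 0.055 for Tgfb1 in SD vs. 2% HS. For MET vs. SD they ran from -0.088 to 0.014 for Inhba, -0.034 to 0.017 for Fst, -0.069 to 0.044 for Acvr2b and -0.058 to 0.0025 for Tgfb1. For LEU vs. SD they ran from -0.025 to 0.030 for Gdf11, -0.060 to 0.022 for Inhba and -0.028 to 0.0032 for Tgfb3. For MET+LEU vs. SD they ran from -0.10 to 0.0039 for Acvr2b, -0.021 to 0.026 for Tgfbr1 and -0.030 to 0.066 for Smad7. For MET+LEU vs. LEU they ran from -0.015 to 0.055 for Tgfb1 and -0.016 to 0.041 for Tgfb2, and for MET+LEU vs. MET from -0.081 to 0.021 for Acvr2b. Over all genes, upper-quartile scaling called 417 higher and 356 lower in MET+LEU vs. LEU (733 and 266 with TMM) and 631 and 637 in MET+LEU vs. MET (881 and 501 with TMM). It called 1446 higher and 1556 lower in MET+LEU vs. SD (1690 and 1241 with TMM), and 3057 and 3674 in MET+LEU vs. 2% HS (3510 and 3224 with TMM). Leaving out single libraries moved the 25 calls over all genes in MET vs. SD to between 4 (without MET replicate 4) and 160 (without MET+LEU replicate 6), and the 88 in LEU vs. SD to between 43 (without LEU replicate 4) and 269 (without MET+LEU replicate 6). The 999 in MET+LEU vs. LEU ran from 396 (without LEU replicate 3) to 1293, the 1382 in MET+LEU vs. MET from 726 (without MET+LEU replicate 6) to 1558, and the 8 of the interaction from 1 to 11. In MET+LEU vs. SD they ran from 2175 (without MET+LEU replicate 6) to 3159. Mstn, with at most 3 counts in any library, could not be tested, and Acvr2b was sparsely counted, with 53 to 98 counts per library.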
